A study of Mus musculus with 4 samples.

Results

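In liver tumours of mice given KLF2, a small set of cells carried transcripts of Ibsp and Serpinf1, which encode secreted proteins of bone matrix. A cell was counted as a member if its Ibsp and Serpinf1 unique molecular identifiers (UMIs, 1 per captured transcript) summed to at least 5 per 10000 of its UMIs and both genes were detected. It also had to have fewer than 10 UMIs per 10000 of the biliary keratin genes Krt7 and Krt19, and 0 UMIs of Ptprc (a leukocyte gene), Cdh5 (an endothelial gene) and C1qa (a macrophage gene). The rule found 53 members among 17312 cells of the 2 KLF2 libraries, and 25715 cells passed the filters in the 3 libraries with a matrix. Of the members, 43 came from KLF2 replicate 1 and 10 from KLF2 replicate 2.

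Both groups were male C57BL/6 mice, 18 weeks old when their liver tumours were collected, 10 weeks after plasmids were injected into the tail vein under pressure. KLF2 mice received a pT3-EF1α-KLF2 plasmid for KLF2 overexpression. Vector mice received an empty pT3 vector instead. All mice, vector mice included, also received pT3-EF1α plasmids for c-MYC and for AKT, and a plasmid for SB100X, the transposase that inserts pT3 constructs into the genome. The EF1α promoter is active in most cell types, and the method reaches only some of the liver cells. Each library is labelled a biological replicate of its own, and the tumours were digested for 30 min and made into droplet libraries with a DNBelab C Series kit.

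Ibsp (integrin-binding sialoprotein, or bone sialoprotein) is an acidic phosphoprotein that osteoblasts secrete into mineralising matrix, where it binds hydroxyapatite and cell surface integrins. Serpinf1 encodes pigment epithelium-derived factor, a secreted serpin without known protease inhibition that limits vessel growth, and its loss in humans causes a form of brittle bone disease. Osteoblasts are the bone-forming cells: the transcription factors Runx2 and Sp7 (osterix) set up their programme, type I collagen forms their matrix, and enzymes such as alkaline phosphatase allow it to mineralise. Healthy liver has no osteoblasts. Its own makers of collagen are stellate cells, portal fibroblasts and the mural cells of vessels.

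Ibsp lies at chr5:104299171-104311469 on the plus strand and Serpinf1 at chr11:75409769-75422701 on the minus strand (GRCm38, GENCODE vM21). Their promoters are shown because these genes choose the members, with the 250 bases before each RefSeq start (GRCm38.p6) printed 5′ to 3′ on the gene's strand. Capitals mark matches to CACCC or its complement GGGTG, the box that KLF factors can bind, and to ACCACA or its complement TGTGGT, the core that Runx factors can bind.
Ibsp promoter, chr5:104299037-104299286, plus strand: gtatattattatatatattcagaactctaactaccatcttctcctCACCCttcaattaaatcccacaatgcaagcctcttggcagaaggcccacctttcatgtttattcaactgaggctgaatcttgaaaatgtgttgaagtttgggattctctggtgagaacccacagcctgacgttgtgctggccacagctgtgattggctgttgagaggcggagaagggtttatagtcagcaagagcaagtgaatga
Serpinf1 promoter, chr11:75422624-75422873, minus strand: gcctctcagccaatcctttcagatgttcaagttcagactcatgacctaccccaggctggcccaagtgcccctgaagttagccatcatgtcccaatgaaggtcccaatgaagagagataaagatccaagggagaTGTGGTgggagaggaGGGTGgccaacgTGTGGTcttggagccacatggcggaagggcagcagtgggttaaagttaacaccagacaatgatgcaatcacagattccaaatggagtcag
The Ibsp window held 1 CACCC box, which begins 205 bases before the start, and no Runx core. The Serpinf1 window held 1 CACCC box, at 102 bases, and 2 Runx cores, at 117 and 90 bases before the start. Of 32851 RefSeq promoters of the same length, 52.0% held a CACCC box and 14.0% a Runx core on either strand. A match is a description of the letters only.

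Members were rare in both KLF2 libraries and differed in number between them. They made up 0.693% of 6209 cells in KLF2 replicate 1 (95% Wilson interval 0.515% to 0.931%) and 0.0901% of 11103 cells in KLF2 replicate 2 (0.0489% to 0.166%). In vector replicate 2 the rule found 0 of 8403 cells, which would allow a share of up to 0.0357% for counting error alone if Ibsp was counted there. Ibsp and Sp7 are missing from the gene list of vector replicate 2 and were taken as 0 there. The rule requires Ibsp, so it could find no member in that library. No matrix of vector replicate 1 was analysed here. With 1 vector and 2 KLF2 libraries, the share was not tested between groups. The gate also depends on depth: the median cell had 8912 UMIs in KLF2 replicate 1, 5854 in KLF2 replicate 2 and 3191 in vector replicate 2.

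The UMIs of both genes were spread unevenly over the members. Ibsp per 10000 UMIs was at 0.230 in the lowest, 3.98 in the median and 237 in the highest member of KLF2 replicate 1, and at 0.291, 5.0 and 151 in KLF2 replicate 2. Serpinf1 was at 0.258, 7.35 and 170 in KLF2 replicate 1 and at 0.224, 8.29 and 60.8 in KLF2 replicate 2. The single highest member held 32.9% and 40.0% of the members' Ibsp UMIs in KLF2 replicates 1 and 2, and 29.4% and 27.5% of the Serpinf1 UMIs. Many members rest on 1 transcript of a gene: 15 and 4 had a single Ibsp UMI, and 7 and 1 a single Serpinf1 UMI. Just inside the threshold, the lowest members summed to 5.30 and 5.35 per 10000, and just outside, the highest cells with both genes summed to 4.88 and 4.63. The threshold left out 80 of 123 cells with both genes in KLF2 replicate 1 and 11 of 21 in KLF2 replicate 2.

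**Figure D1:**
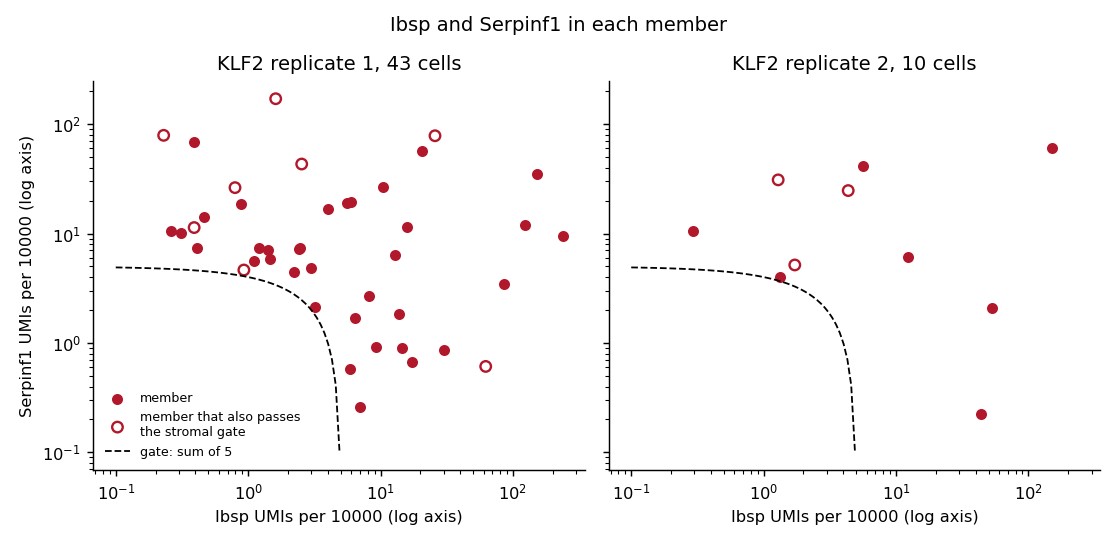
Ibsp (horizontal) and Serpinf1 (vertical) UMIs per 10000 in each of the 43 members of KLF2 replicate 1 and the 10 of KLF2 replicate 2, both on log axes. The dashed line is the gate at a sum of 5, and open symbols are the 8 and 3 members that also passed the gate for stromal cells. Levels of both genes span over 100 per 10000 between the lowest and highest members of KLF2 replicate 1.

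Levels below are CPM, the UMIs of a gene per 1000000 UMIs of all genes, summed over a cell group in 1 library, and the values are given for KLF2 replicate 1 and then KLF2 replicate 2. Members were set against the other cells without Ptprc or Cdh5 UMIs (5278 and 8980 cells), and against 2 more groups that also lacked C1qa. The first was 458 and 1160 biliary keratin cells, with at least 10 UMIs per 10000 of Krt7 and Krt19. The second was 72 and 90 stromal cells. They had at least 10 per 10000 summed and at least 3 detected of Pdgfrb, Pdgfra, Col3a1, Dcn, Lum and Rgs5. The 8 and 3 members that also passed this gate were left out of the stromal cells. Members held 910756 and 167551 UMIs in all. They were deeper than the other cells, with medians of 17146 and 8776.5 UMIs per member, against 8635 and 5486 per other cell. The KLF2 libraries shared 550 barcode names of 6282 and 11240.

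By the rule itself, Ibsp was high and Krt7 and Krt19 were low in members, so these levels carry no test. Ibsp had 1603 and 2936 CPM in members, against 108 and 17.4 CPM in other cells. The other cells include cells with C1qa UMIs, which held 8186 Ibsp UMIs in KLF2 replicate 1, 2596 of them in 1 cell. Outside members and biliary keratin cells, the cells without Ptprc, Cdh5 and C1qa UMIs had 9.06 and 17.1 CPM of Ibsp. Serpinf1 had 2757 and 1235 CPM in members, against 126 and 23.9 CPM in other cells. Stromal cells held 2475 and 639.9 CPM of Serpinf1, close to the members in KLF2 replicate 1. Their gate reads neither gene, but the members were taken out of them by both genes. Cells with Ptprc UMIs held 70.8 and 35.7 CPM of Serpinf1, of which 1 cell held 28.6% and 65.6%, so a level from free transcripts was not measured. In vector replicate 2 the cells without Ptprc or Cdh5 had 24.7 CPM of Serpinf1, 835 CPM of Col1a1, 1.14 CPM of Smpd3 and 3.02 CPM of Alpl.

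The bone-matrix name matched the levels of type I collagen, Sparc and a set of osteoblast genes, and not that of Mgp. Col1a1 (chr11:94936224-94953042, plus strand), which encodes the main chain of type I collagen, had 13493 and 13990 CPM in members, against 586 and 195 CPM in other cells. Its partner chain Col1a2 had 4706 and 10140 CPM in members and 346 and 104 CPM in other cells. Sparc (osteonectin), a matrix protein that binds collagen and calcium, had 9636 and 12862 CPM in members and 904 and 280.4 CPM in other cells. In both libraries these 3 genes were far above the other cells. The log2 fold changes were 5.32 ± 0.13, 5.16 ± 0.15 and 4.44 ± 0.13 (SE). All 3 were past the threshold of an adjusted p of 0.05 in the edgeR quasi-likelihood test. These SEs use a spread pooled over all genes and do not measure how far the 2 libraries lie apart. With robust moderation, which lets single genes keep a spread of their own, the SEs were 0.97, 1.72 and 1.22. The calls were then lost, at edgeR adjusted p of 0.53, 0.67 and 0.63.

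Slpi and Mgp, the other named markers of these cells, behaved differently from each other. Slpi (chr2:164354070-164389095, minus strand), a secreted inhibitor of leukocyte elastase, had 2343 and 4064 CPM in members, against 158 and 188 CPM in other cells. Its log2 fold change was 4.14 ± 0.17, but 1 cell held 40.4% of the members' Slpi UMIs in KLF2 replicate 1 and 1 cell 72.8% in KLF2 replicate 2. Cells with Ptprc UMIs had 1272 and 772 CPM of Slpi, of which 1 cell held 47.5% and 68.0%. Mgp (matrix Gla protein; chr6:136872435-136875823, minus strand), which inhibits calcification, had 349 and 53.7 CPM in members, against 282 and 88.1 CPM in other cells and 1345 and 3521 CPM in stromal cells. Members stood above the other cells in KLF2 replicate 1 and below them in KLF2 replicate 2, and the log2 fold change of -0.05 ± 0.26 did not pass (edgeR adjusted p = 0.96). Against stromal cells Mgp was lower in members in both libraries, with a log2 fold change of -3.38 ± 0.56 (edgeR adjusted p = 3.4e-04), a call lost with DESeq2 (adjusted p = 0.19) and robust moderation (adjusted p = 0.54).

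Of 12 osteoblast identity genes tested against other cells, 7 rose in members and none fell (edgeR quasi-likelihood test, Benjamini-Hochberg adjusted p under 0.05), with a median log2 fold change of 3.59. Over all 17377 genes tested, 585 were higher (3.37%) and 591 lower (3.40%), and the median log2 fold change was -0.28. Sp7 (chr15:102356606-102367182, minus strand), the factor that commits cells to the osteoblast fate, had 107 and 137 CPM in members, against 9.38 and 6.40 CPM in other cells. Both members' values lay above both of the other cells, at a log2 fold change of 3.87 ± 0.36 (edgeR adjusted p = 9.4e-24). Among cells of 5000 to 20000 UMIs the Sp7 value was 3.04 and did not pass (edgeR adjusted p = 0.11). Smpd3, a neutral sphingomyelinase that mouse bone needs to mineralise, had 825 and 943 CPM in members, against 56.7 and 59.4 CPM in other cells (log2 fold change 3.90 ± 0.22). In that depth range Smpd3 was detected in 5 of 17 and 3 of 6 members, against 22.1% and 28.7% of other cells. Tmem119, a membrane protein of differentiating osteoblasts, had 328 and 275 CPM in members and 30.4 and 15.7 CPM in other cells (3.72 ± 0.27).

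Further genes of this list moved the same way. Alpl, the alkaline phosphatase of mineralising cells, had 357 and 215 CPM in members and 37.4 and 11.9 CPM in other cells (log2 fold change 3.63 ± 0.28). Msx2, a homeobox factor of skull bone, had 163 and 179 CPM in members and 55.5 and 32.1 CPM in other cells (1.93 ± 0.29). Both were higher in both libraries, but among cells of 5000 to 20000 UMIs Msx2 did not pass (edgeR adjusted p = 0.38). Ifitm5 (chr7:140948958-140950291, minus strand), a membrane protein of osteoblasts, had 39.5 and 346 CPM in members and 4.70 and 1.91 CPM in other cells, but only 11 and 2 members held it. Its call was lost with robust moderation (adjusted p = 0.74).

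Neither Runx2 nor Bglap passed. Runx2, the factor upstream of Sp7, had 123 and 53.7 CPM in members, against 79.6 and 77.5 CPM in other cells, with a log2 fold change of 0.21 ± 0.31 (edgeR adjusted p = 0.86). Bglap (osteocalcin), a late osteoblast product, had 51.6 and 5.97 CPM in members and 17.5 and 15.8 CPM in other cells (1.04 ± 0.45, edgeR adjusted p = 0.20). For both genes the libraries lay on opposite sides of the other cells, but the Bglap value of KLF2 replicate 2 rests on 1 UMI. Spp1 (osteopontin), which bone, bile duct cells and macrophages make, had 657 and 35.8 CPM in members and 79.3 and 186 CPM in other cells. Spp1 passed with edgeR (adjusted p = 0.0028) and not with DESeq2 (adjusted p = 0.99), and 1 member held 88.3% of its UMIs in KLF2 replicate 1. Among the 20 bone and mineral matrix genes tested, counted without Ibsp, 9 were higher and 1 was lower, with a median log2 fold change of 1.86. Dmp1 and Dspp, mineral-binding phosphoproteins, were among the 9 but came from 3 and 2 members in all.

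**Figure D2:**
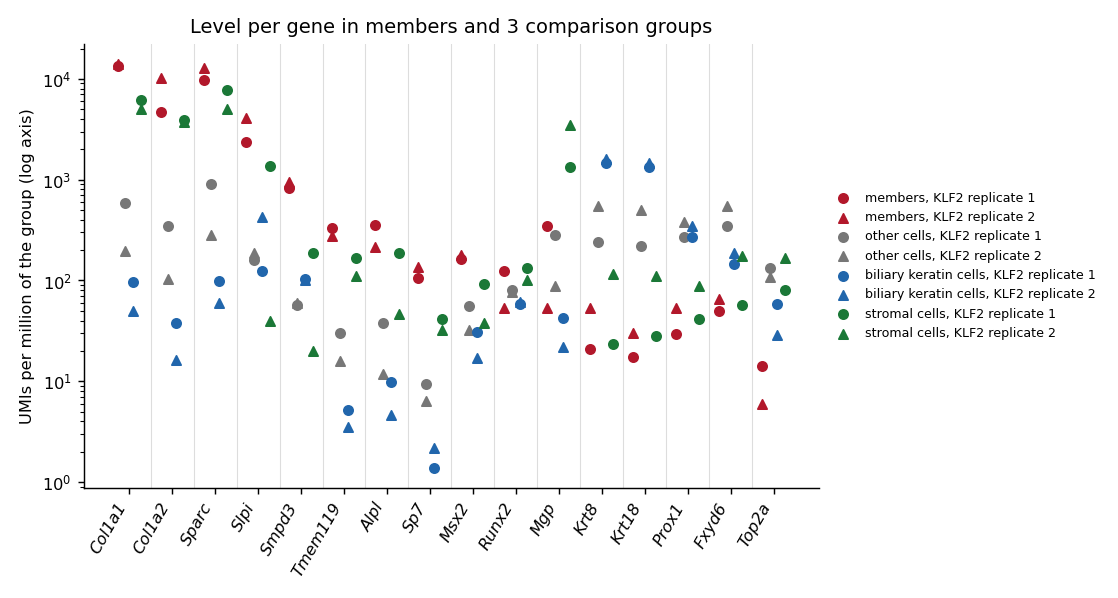
Level in CPM (log axis) of 16 genes in members (red), other cells (grey), biliary keratin cells (blue) and stromal cells (green) of KLF2 replicate 1 (circles) and KLF2 replicate 2 (triangles). Col1a1, Sparc, Smpd3, Tmem119, Alpl and Sp7 are highest in members, Mgp is highest in stromal cells, and Krt8 and Krt18 are highest in biliary keratin cells.

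Whether the members are tumour cells is not shown by these counts. Akt1 had 935 and 429.7 CPM in members, 1249 and 707 CPM in other cells, 619 and 241 CPM in stromal cells and 560.1 and 419 CPM in cells with Ptprc UMIs. Myc had 496 and 334 CPM in members, 672 and 463 CPM in other cells and 295 and 280.0 CPM in cells with Ptprc UMIs. In KLF2 replicate 2 the members' Akt1 was close to that of cells with Ptprc. Against other cells Akt1 passed with edgeR (log2 fold change -0.58 ± 0.17, adjusted p = 0.017) and not with DESeq2 (adjusted p = 0.57). Klf2 had 203 and 286.5 CPM in members, 331 and 388.5 CPM in other cells and 405 and 492 CPM in cells with Ptprc UMIs, with a log2 fold change of -0.60 ± 0.22 over other cells (edgeR adjusted p = 0.075). Transcripts of an injected copy and of the mouse's own gene cannot be told apart in these counts.

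Members differed among themselves in how much of the bone programme they held. A set of 6 genes of it was counted per cell, namely Sp7, Smpd3, Tmem119, Creb3l1 (a factor that activates Col1a1), Alpl and Ifitm5. All but Creb3l1 are osteoblast identity genes reported above as higher in members than in other cells. Runx2 and Bglap, which did not pass, are not in the set, so the count is no independent evidence. At least 3 of the 6 were detected in 25 of 43 members of KLF2 replicate 1 (58.1%, 95% Wilson interval 43.3% to 71.6%) and in 6 of 10 members of KLF2 replicate 2. The same held for 302 of 5278 other cells (5.72%) and 245 of 8980 (2.73%). None of the 6 was detected in 3 and 1 members. Among cells of 5000 to 20000 UMIs, where depths are closer, it held for 7 of 17 members (41.2%) and 2 of 6 (33.3%), for 8 of 31 stromal cells (25.8%) and 4 of 46 (8.70%), and for 76 of 2230 other cells (3.41%) and 60 of 3030 (1.98%). For these chosen genes the share was higher in members than in the other cells at like depth, on few cells.

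Single genes showed the same unevenness. Col1a1 was detected in 38 of 43 and 9 of 10 members, with medians of 4.90 and 56.9 and highest values of 619 and 500 UMIs per 10000. Sparc was detected in all members, with medians of 36.8 and 32.0 per 10000. Smpd3 was detected in 19 of 43 and 7 of 10 members, with medians of 0 and 7.78 and highest values of 70.9 and 46.8 per 10000. So a member without Smpd3 was common in KLF2 replicate 1. Sp7 was detected in 25 and 7 members, Alpl in 29 and 6, and Tmem119 in 25 and 7. Slpi was detected in 22 and 6 members and ranged up to 247 and 529 per 10000.

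**Figure D3:**
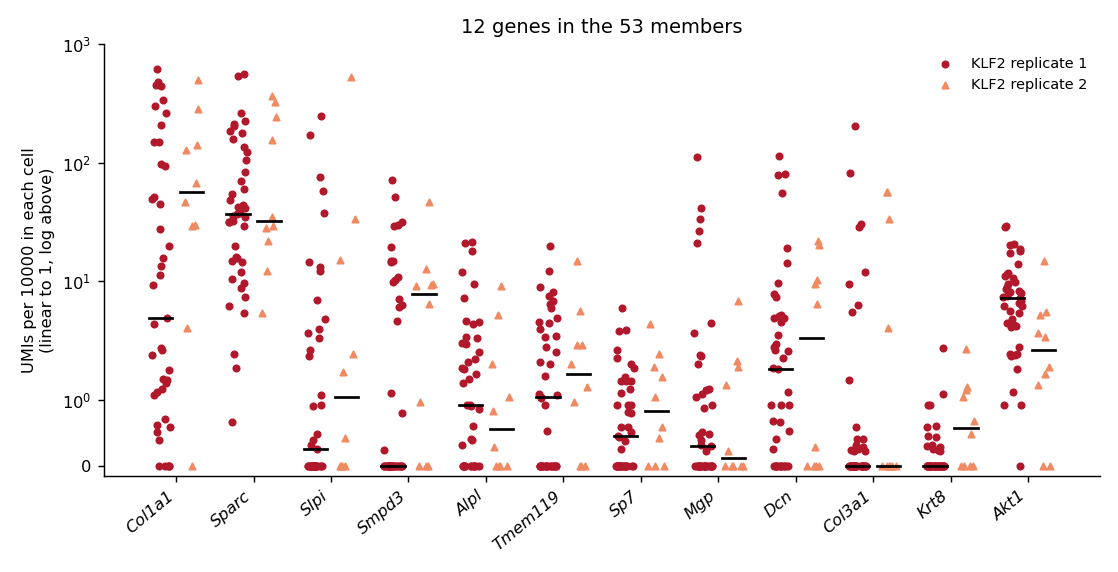
UMIs per 10000 of 12 genes in each of the 53 members, KLF2 replicate 1 (43 circles) to the left of KLF2 replicate 2 (10 triangles) for each gene, on an axis linear up to 1 and logarithmic above; black bars are medians. Sparc is above 0 in every member, while Slpi, Smpd3, Mgp and Col3a1 span 0 to at least 70.9 in KLF2 replicate 1.

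Members with more Ibsp and Serpinf1 also held more type I collagen, a description since the bins come from the gate. The 18 and 6 members at 20 or more per 10000 had 25474 and 20311 CPM of Col1a1, and the 25 and 4 members at 5 to 20 had 1939 and 1343 CPM. Slpi had 4404 and 6069 CPM in the members at 20 or more, and 356 and 53.7 CPM in those at 5 to 20. Smpd3 did not follow this order, with 819 and 815 CPM in the members at 20 or more and 830 and 1200 CPM in those at 5 to 20. Sp7 was likewise present in both, at 89.5 and 170 CPM and at 123 and 71.6 CPM.

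The comparison with all other cells covered the 17377 genes, with the library as a block. The members were chosen on 2 genes of the same cells, so a gene that varies with Ibsp or Serpinf1 from cell to cell differs through that choice. By a fixed rule of size the highest 12 were Enpp6, Klk4, Slc13a5, Col1a1, Ifitm5, Npy, Col1a2, Cgref1, Cdsn, Cox6a2, Dpt and Cpxm1, with log2 fold changes of 4.51 to 5.41 and edgeR adjusted p of at most 1.5e-05. Slc13a5, a citrate carrier, had 102 and 424 CPM in members, against 6.65 and 3.75 CPM in other cells (5.32 ± 0.33), and was detected in 12 and 5 members. Cgref1, a secreted protein with EF-hand domains, had 163 and 197 CPM in members, against 7.47 and 2.83 CPM in other cells (5.15 ± 0.34), in 14 and 4 members. These values lay apart in both libraries. With 5 CPM added to each level, members exceeded other cells by 2-fold or more in both libraries for 219 of 4101 genes (5.34%), and fell short by as much for 151 (3.68%), among genes averaging 30 CPM or more.

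Several of the 12 rested on very few cells. Klk4, a kallikrein protease of maturing enamel, came from 1 and 2 members, and Dpt (dermatopontin), a fibroblast matrix protein, from 1 member in each library. Cdsn (corneodesmosin), an adhesion protein of keratinised epithelium, came from 4 and 1 members. Npy (neuropeptide Y) came from 5 and 1 members, and 1 member held 51.7% and 100% of its UMIs. Enpp6, a choline phosphodiesterase, came from 4 and 3 members, and 1 member held 87.2% of its UMIs in KLF2 replicate 1. Such values describe single cells more than the set.

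The collagen machinery moved with type I collagen. Of 29 collagens tested, 13 rose and 1 fell, and of 22 genes that process collagen, 12 rose and none fell, with median log2 fold changes of 2.15 and 1.72. Col5a1, which forms fibrils together with type I collagen, had 289 and 203 CPM in members and 24.6 and 8.94 CPM in other cells (3.94 ± 0.29). Pcolce, which speeds the trimming of procollagen, had 636 and 597 CPM in members and 57.7 and 27.3 CPM in other cells (3.91 ± 0.24). The procollagen chaperone Serpinh1 had 775 and 883 CPM in members and 201 and 95.9 CPM in other cells (2.53 ± 0.20). The prolyl hydroxylases P4ha1 and P4ha2 rose by 2.37 ± 0.23 and 2.49 ± 0.29 on the log2 scale.

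Genes of fibroblasts and stellate cells moved with these groups. Of 18 tested, 12 rose and none fell, with a median log2 fold change of 2.86, and several of these genes are also bone matrix genes. Dcn (decorin), a proteoglycan of connective tissue, had 1242 and 722 CPM in members and 167 and 58.9 CPM in other cells (3.22 ± 0.20). Of 10 mural genes, 3 rose, and their summed level was 283 and 65.7 CPM in members, against 1960 and 1626 CPM in stromal cells. Rgs5, the defining pericyte gene, had 71.4 CPM in members of KLF2 replicate 1, of which 1 cell held 93.8%, and 0 UMIs in those of KLF2 replicate 2. The part that admixed stromal RNA may have in these levels was not tested. In 8 and 3 members the stromal gate was passed as well, and without those members Sp7, Smpd3 and Alpl kept their calls.

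Epithelial and dividing-cell genes were lower in members. Krt8 and Krt18, the keratins of simple epithelia, had 20.9 and 53.7 CPM and 17.6 and 29.8 CPM in members, against 239 and 547 CPM and 217 and 502 CPM in other cells. Their log2 fold changes were -3.47 ± 0.28 and -3.81 ± 0.30. Among cells of 5000 to 20000 UMIs, Krt8 was detected in 3 of 17 and 4 of 6 members, against 43.8% and 68.9% of other cells. Krt18 was detected there in 3 of 17 and 2 of 6 members, against 43.9% and 67.4%. Both calls were lost on cells thinned to 1000 UMIs (edgeR adjusted p = 0.52 for Krt8 and 0.62 for Krt18). Of 17 biliary genes, 7 fell and 2 rose, and Epcam, a surface protein of epithelial cells, had 49.4 and 29.8 CPM in members and 96.0 and 169 CPM in other cells (-1.46 ± 0.32), which did not pass with DESeq2 (adjusted p = 0.086). With the members' own exclusions applied to the other cells, the Epcam value was -0.78 and did not pass (edgeR adjusted p = 0.20), nor did it among cells of 5000 to 20000 UMIs (edgeR adjusted p = 0.12) or with at least 3 UMIs of Ibsp and of Serpinf1 in a member (edgeR adjusted p = 0.38). The rule's limit on Krt7 and Krt19 bears on genes that vary with those keratins. Krt5, a keratin of basal epithelia, was the exception, with 237 and 95.5 CPM in members and 19.5 and 2.98 CPM in other cells, but 7 members and 1 member held it.

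All 16 G2 and M phase genes tested fell, with a median log2 fold change of -3.89, and with DESeq2 10 of them passed. After every cell was thinned to 1000 UMIs, no gene was called lower in members by edgeR, with 258 at an unadjusted p under 0.05. Top2a, which untangles DNA at mitosis, had 14.3 and 5.97 CPM in members and 134 and 109 CPM in other cells (-3.40 ± 0.41). Of 15 S phase genes, 8 fell with edgeR and 1 with DESeq2. Cdkn1a, the cell cycle inhibitor p21, had 2756 and 3235 CPM in members and 853 and 948 CPM in other cells (1.71 ± 0.15). Among cells of 5000 to 20000 UMIs, where members' and other cells' depths are closer, Cdkn1a differed by 0.46 and Top2a by -2.19, and neither passed (edgeR adjusted p = 0.95 and 0.13). Genes of other tumour cell states fell in 7 of 11 cases and rose in none. Fxyd6, a regulator of the sodium pump, had 49.4 and 65.7 CPM in members and 347 and 547 CPM in other cells (-2.93 ± 0.26), a call lost among cells of 5000 to 20000 UMIs (-1.98, edgeR adjusted p = 0.085). Prox1, a factor of hepatocytes and lymphatic vessels, had 29.6 and 53.7 CPM and 272 and 383 CPM (-3.08 ± 0.29).

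The 12 lowest genes by the rule of size were Gpx2, Sox21, Igkc, Foxa2, Cldn7, Defa22, Pllp, Tpx2, Mmp15, Cenpa, Ehf and Birc5, with edgeR adjusted p of at most 6.6e-06. Each had 0 to 5 UMIs in the members of a library. Foxa2, a liver and gut endoderm factor, had 1.10 and 5.97 CPM in members and 50.9 and 58.9 CPM in other cells (-4.77 ± 0.69). Cldn7, a tight junction protein, had 2 and 0 UMIs in members, against 29.5 and 98.6 CPM in other cells. Gpx2, a glutathione peroxidase of gut epithelium, had 0 UMIs in members, which allows up to 3.29 and 17.9 CPM, against 39.9 and 46.6 CPM in other cells. With DESeq2, Gpx2 and Defa22 did not pass, at adjusted p of 0.67 and 0.45. Among cells of 5000 to 20000 UMIs, 11 of the 12 lost their calls, with edgeR adjusted p of 0.072 to 0.95, and Igkc kept its call.

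Leukocyte genes were lower in members, in part through the rule, while endothelial and erythroid genes were not. Of 18 leukocyte genes, 9 fell, and their summed level was 155 and 233 CPM in members, against 538 and 1014 CPM in other cells. Cd74, the invariant chain of antigen-presenting cells, had 23.1 and 35.8 CPM in members and 85.8 and 269 CPM in other cells. Of 13 endothelial genes only Fabp4 rose and none fell, and 1 cell held 96.8% and 92.3% of the Fabp4 UMIs in the 2 libraries. The summed level of the endothelial list was 228 and 197 CPM in members, against 83.8 and 132 CPM in other cells. Of 5 erythroid genes tested, 2 rose and none fell. Of 17 MHC class I genes none passed in either direction.

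**Figure D4:**
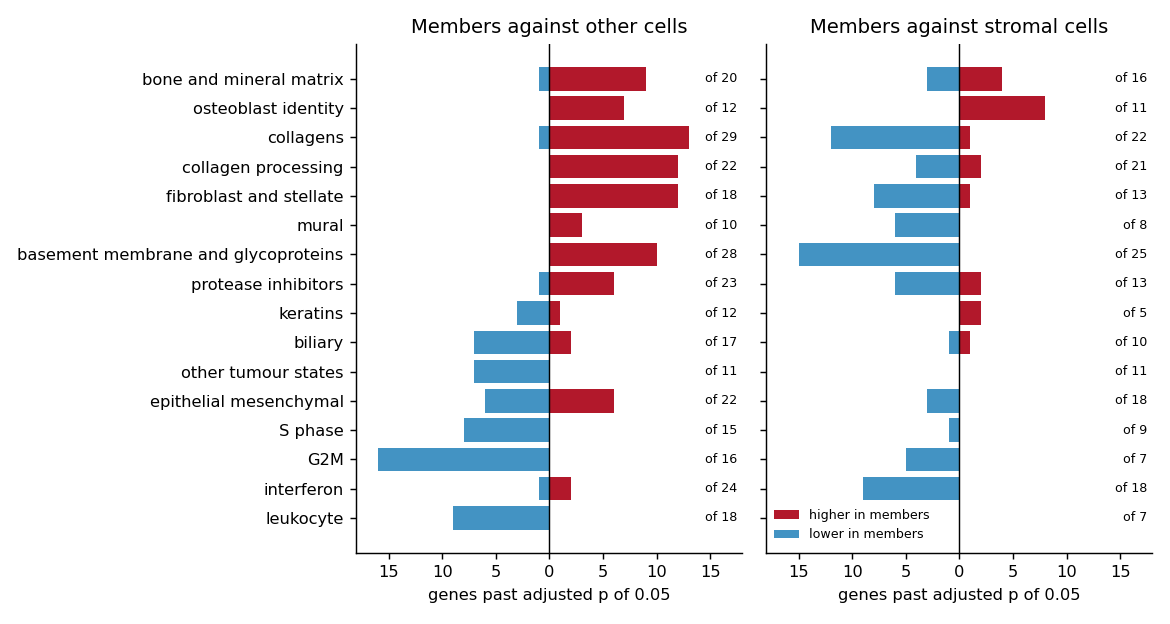
Number of genes per list past an adjusted p of 0.05 in the edgeR quasi-likelihood test, higher in members to the right and lower to the left, with the number tested beside each bar pair. Against other cells (left panel) the osteoblast identity, collagen and fibroblast lists lie to the right, and against stromal cells (right panel) only the osteoblast identity list has 8 genes to the right.

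Against the biliary keratin cells, which the rule separates by Krt7 and Krt19, the same bone matrix genes led. Of 12201 genes tested, 982 were higher in members (8.05%) and 1013 lower (8.30%). The 6 highest were Slc13a5, Col1a2, Col1a1, Cox6a2, Sparc and Enpp6, with log2 fold changes of 7.21 to 8.98. Col1a1 had 95.7 and 50.1 CPM in biliary keratin cells, and Smpd3 103 and 101 CPM, both far under the members. Of 10 osteoblast identity genes, 8 rose and none fell. Among the 6 lowest, Gpx2, Crb3, Dnah17, Ap1m2 and Osgin1 had 0 UMIs in the members of both libraries, and none of these 5 passed with DESeq2. Crb3, an epithelial polarity protein, had 48.9 and 51.9 CPM in biliary keratin cells. Krt8 had 20.9 and 53.7 CPM in members and 1462 and 1607 CPM in biliary keratin cells (-5.57 ± 0.25).

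Set against the stromal cells, several osteoblast genes were higher in members and many other matrix genes lower, and most of the osteoblast calls depended on the depth of the cells or the tool. Of 8667 genes tested, 255 were higher in members (2.94%) and 442 lower (5.10%). Of 11 osteoblast identity genes, 8 rose and none fell, with a median log2 fold change of 1.60 beside -0.03 over all genes. With DESeq2, 2 of the 11 osteoblast genes passed. Among cells of 5000 to 20000 UMIs the edgeR calls of Sp7 (log2 fold change 1.38, adjusted p = 0.54), Alpl (0.75, adjusted p = 0.79), Tmem119 (0.63, adjusted p = 0.85) and Msx2 (1.24, adjusted p = 0.52) were lost. Tmem119 was detected in 7 of 17 and 3 of 6 members in that range, against 19 of 31 and 21 of 46 stromal cells. Smpd3 had 825 and 943 CPM in members, against 187 and 20.2 CPM in stromal cells (3.71 ± 0.52, edgeR adjusted p = 5.6e-05), a call lost with DESeq2 (adjusted p = 0.096) and robust moderation (adjusted p = 0.48). Sp7 had 107 and 137 CPM in members, against 41.4 and 32.1 CPM in stromal cells (1.81 ± 0.34, edgeR adjusted p = 1.2e-03), and did not pass with DESeq2 (adjusted p = 0.075). Alpl had 357 and 215 CPM in members and 188 and 46.3 CPM in stromal cells (1.60 ± 0.34). Without the members that pass the stromal gate, the Alpl value was 0.68 and did not pass (edgeR adjusted p = 0.28), and without the replicate block it did not pass either (edgeR adjusted p = 0.19).

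Col1a1 was higher in members than in stromal cells, and 12 other collagens were lower. Col1a1 had 13493 and 13990 CPM in members, against 6187 and 5024 CPM in stromal cells (1.46 ± 0.34, edgeR adjusted p = 7.1e-03). The Col1a1 call was lost among cells of 5000 to 20000 UMIs (0.24, edgeR adjusted p = 0.96) and without the 5% of cells with the most UMIs (0.68, edgeR adjusted p = 0.38). Of 22 collagens tested, Col1a1 was the only one that rose, and 12 fell, with a median log2 fold change of -1.39. Col4a1, a basement membrane collagen, had 128.5 and 191 CPM in members and 1084 and 1251 CPM in stromal cells (-2.75 ± 0.32). Bgn (biglycan) had 549 and 1414 CPM in members and 2655 and 2871 CPM in stromal cells (-1.49 ± 0.34). Sparc did not pass in this comparison, at 9636 and 12862 CPM in members and 7788 and 4997 CPM in stromal cells (edgeR adjusted p = 0.098).

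The 6 genes lowest against stromal cells were at 0 UMIs in the members, while other stromal genes were present: Dcn in 31 and 6 members, Col3a1 in 18 and 4, and Pdgfrb in 7 and 3. Lrat, which stores retinol in stellate cells, had 0 UMIs in members and 106 and 152 CPM in stromal cells. Sparcl1 had 0 UMIs in members and 70.9 and 138 CPM in stromal cells, and the growth factor Hgf 0 UMIs and 66.7 and 112 CPM. Fabp7, Thbs4 and Reln complete the 6. For each the limit is 3.29 and 17.9 CPM, and those of the 6 that DESeq2 gave an adjusted p did not pass with it. Of 28 genes of basement membrane and matrix glycoproteins, 10 rose against other cells, and of the 25 tested against stromal cells, 15 fell.

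The 6 highest genes over stromal cells were Gal, Cox6a2, Ifitm5, Krt5, Npy and Slc13a5. Slc13a5 had 102 and 424 CPM in members and 3.38 and 1.19 CPM in stromal cells (6.53 ± 0.53, edgeR adjusted p = 7.8e-08). Ifitm5 had 39.5 and 346 CPM in members, against 0 and 1.19 CPM in stromal cells. Gal, the neuropeptide galanin, came from 4 and 2 members, and Cox6a2, a subunit of cytochrome oxidase in muscle, from 4 and 2 members. Of the 6, only Slc13a5 was found in more than 11 members of KLF2 replicate 1.

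All adjusted p-values rest on 2 libraries. The comparison leaves 1 residual degree of freedom, and for other and biliary keratin cells edgeR pooled the spread over all genes. A gene whose libraries differ more than most therefore has a standard error and a p-value that are too small. In the 10 members of KLF2 replicate 2, a gene without UMIs could still have up to 17.9 CPM, the limit of 3 counts.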

How the data were processed

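The authors deposited raw UMI counts of each gene for each cell barcode. PISA 1.0 wrote the count matrices, per the file headers, and the submitters' processing notes name GRCm38. Aligner, annotation and cell calling: not given in the sources used here. KLF2 replicates 1 and 2 and vector replicate 2 held 95374838, 125458473 and 45594544 UMIs. The matrix of vector replicate 1 was not analysed here.

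Cells were kept at 300 or more genes and no more than 25% of UMIs from mitochondrial genes. No doublet caller was run, and an alternative dropped the 5% of cells with the most UMIs. Counts were summed per library and cell group and compared by the quasi-likelihood test of edgeR 4.0.16 in R 4.3.3 (TMM scaling, filterByExpr, library as a block since both cell groups come from the same mouse, Benjamini-Hochberg adjusted p of 0.05). The 7 genes of the rule, and in that comparison the 6 genes of the stromal gate, were left out of calls. Standard errors are the log2 fold change over the square root of its F statistic, so they carry the spread that edgeR shared across genes. CPM are counts per 1000000 UMIs of the group. Wilson intervals at 95% and limits of 3 counts for a count of 0 cover counting error only.

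Named genes are those past the threshold with at least 30 CPM in the higher group and at least 2-fold apart in both libraries, the 12 highest and 12 lowest against other cells and the 6 and 6 against each further group, and up to 4 genes per list. Alpl, Msx2, Runx2, Bglap, Spp1, Sparc, Krt5, Akt1, Myc, Klf2, Cdkn1a and other genes named outside that rule were chosen after their values were seen. The members and the 41 gene lists were chosen with earlier results of these data known, so they are no independent evidence.

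Alternatives were DESeq2 1.42.0, RLE size factors, no low-count filter, no replicate block, robust moderation, other gates and cell filters, the comparison cells with the members' exclusions, no haemoglobin, mitochondrial or Gm42418 and AY036118 counts, thinning to 1000 UMIs, cells of 5000 to 20000 UMIs, and each library left out. Gene positions are from GENCODE vM21 and promoters from RefSeq. The tests were checked on data simulated with the same spread for every gene, which does not cover genes whose libraries differ more than most. Of the genes that the naming rule or the lists hold, 2 are not reported here.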

Additional observations from a re-analysis of the deposited data

Results flagged for a closer look

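Most Ibsp UMIs of the KLF2 libraries lay outside the 53 members, in cells the rule leaves out. In KLF2 replicate 1, 8186 Ibsp UMIs were in cells with C1qa and without Ptprc or Cdh5 UMIs, and 1902 in cells with Ptprc UMIs, of 12088 in the library. In KLF2 replicate 2 these were 859 and 5457 of 7800. Members held 12.1% and 6.31% of the Ibsp UMIs, and Ibsp is missing from the gene list of vector replicate 2.

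Single cells held much of it. The cell with the most Ibsp in KLF2 replicate 1 had 2596 Ibsp UMIs among 124983, with 2 C1qa UMIs and no Ptprc. In KLF2 replicate 2 the top cell had 5183 Ibsp UMIs among 138544, with 1 Ptprc and 5 C1qa UMIs. Of cells with at least 20 Ibsp UMIs per 10000 that were left out through C1qa or Ptprc, 7 were in KLF2 replicate 1 and 4 in KLF2 replicate 2, with medians of 81870 and 55366.5 UMIs. The 7 had 36401 CPM of Col1a1, 96.2 of Sp7 and 1081 of Tmem119. Those left out through C1qa alone are part of the other cells that members were set against. Their C1qa was at 17.2 and 28.3 CPM, against 38.5 and 101 CPM in all other cells and 1269 and 1448 CPM in cells with Ptprc UMIs.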

How the results depend on the processing

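Against other cells (585 higher, 591 lower), DESeq2 called 371 and 119. Without the replicate block the lower calls were 234, without the 5% of cells with the most UMIs 382, and without members that pass the stromal gate 364. With at least 3 UMIs of each gene in a member the calls were 300 and 270, in cells of 5000 to 20000 UMIs 109 and 39, after thinning 5 and 0, and with any number of C1qa UMIs 1420 and 1394. Against biliary keratin cells (982, 1013) DESeq2 called 484 and 295, 3 UMIs of each gene 469 and 600, the depth range 291 and 194, and thinning 68 and 17. Against stromal cells (255, 442) DESeq2 called 65 and 92, no replicate block 111 and 225, 3 UMIs of each gene 113 and 204, the depth range 25 and 28, thinning 25 and 45, and leaving out the deepest cells 87 and 212. Genes at least 2-fold apart in both libraries numbered 219 higher (5.34% of 4101) and 151 lower (3.68%). Adding 20 CPM made the lower 92, and with 1 library left out they ranged over 283 to 408 higher and 221 to 558 lower.

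Shares of members were 0.467% in KLF2 replicate 1 at a gate of 10; 0.242% and 0.0450% in the 2 libraries with 3 UMIs of each gene; 0.242% and 0.0360% on thinned cells; and 0.999% and 0.207% with no limit on Ptprc, Cdh5 and C1qa.

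Some log2 fold changes over other cells changed sign: Npy -6.87 and Bglap -1.81 in the depth range; Dpt -8.88, Tagln -3.03, Rgs5 -1.77 and Runx2 -0.28 with 3 UMIs of each gene; Dpt -8.71, Cpxm1 -1.24, Tagln -0.025 and Rgs5 -1.97 without members that pass the stromal gate; Tagln and Rgs5 between -0.23 and 1.80 and between -1.44 and 1.60 with 1 library left out (the negative value without KLF2 replicate 1); and Runx2 -0.41 on thinned cells. Mgp turned positive with RLE factors (0.034), without the replicate block (0.27), in the depth range (0.80), with any C1qa (0.36) and without stromal cells among the other cells (0.20). The values of Npy and Dpt are fits to 0 UMIs in members and are no bound. The causes were not tested. Smpd3, Alpl and Cgref1 passed against other cells under every alternative with a test. Among cells of 5000 to 20000 UMIs, 41 of 92 values of named genes lost their calls. The median log2 fold change of all genes was -0.28 with TMM, -0.20 with RLE and -0.15 with DESeq2. Thinning left 1000 UMIs per cell and 53 members, which limits what it can call.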

Other observations

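Of 21 Wnt targets and inhibitors tested against other cells, 3 rose in members and 4 fell (edgeR). Wif1 had 3011 and 1916 CPM in members of KLF2 replicates 1 and 2, against 716 and 481 CPM in other cells, at a log2 fold change of 2.01 ± 0.16. Stromal cells had 3113 and 454 CPM of Wif1, and among cells of 5000 to 20000 UMIs the call was lost (0.95, edgeR adjusted p = 0.95). Dkk1 had 26.4 and 227 CPM in members and 6.13 and 3.22 CPM in other cells (4.12 ± 0.44), in 5 and 5 members, and its call was lost with robust moderation (adjusted p = 0.19) and among cells of 5000 to 20000 UMIs (2.91, edgeR adjusted p = 0.89). With edgeR the target genes Lgr5 and Axin2 fell by 1.97 and 1.04 on the log2 scale. With DESeq2 none of the 21 genes was called lower. Of 18 hypoxia genes, 5 rose and none fell, 2 of them the prolyl hydroxylases of collagen, and Ndrg1 had 264 and 269 CPM in members and 124 and 105 CPM in other cells (1.19 ± 0.24).

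The metallothionein Mt3 had 84.5 and 17.9 CPM in members and 584 and 265 CPM in other cells (-3.05 ± 0.27). Atf3, an immediate early factor, had 258 and 519 CPM in members and 598 and 1127 CPM in other cells, a call lost without the replicate block (edgeR adjusted p = 0.13) and among cells of 5000 to 20000 UMIs (edgeR adjusted p = 0.24).

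Cells with only 1 of the 2 genes, at 5 or more per 10000, also held bone matrix transcripts. The 21 and 50 cells with Ibsp alone had 3445 and 5886 CPM of Col1a1, 50.9 and 25.4 of Sp7 and 84.9 and 300.4 of Smpd3, at medians of 1384 and 1490 UMIs per cell. The 177 and 80 cells with Serpinf1 alone had 3640 and 3012 CPM of Col1a1, 49.8 and 56.9 of Sp7 and 171 and 131 of Smpd3. The 2799 and 4871 cells with neither gene had 117 and 103 CPM of Col1a1, 5.81 and 4.77 of Sp7 and 28.5 and 43.7 of Smpd3.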
